A study of Mus musculus with 10 samples.

Results

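The genes described are 32 genes of GABA signalling and inhibitory interneuron identity, chosen by symbol and measured in the cortex of an Alzheimer's disease mouse model with and without a conditional deletion of Idol in neurons. All 32 were found among the 53700 gene identifiers of the count tables, and all 32 were among the 19268 genes with a total count over 10 that entered the test. They comprise 9 GABA-A receptor subunits, 2 GABA-B receptor subunits, 5 genes of GABA synthesis, transport and breakdown, 4 genes of the inhibitory postsynaptic scaffold, 10 genes that mark or specify interneurons, and 2 chloride cotransporters. The cortices came from 10 female mice of 4 months, of which 5 carry the label 5XFAD;Neu cKO and 5 the label 5XFAD. Mice of both groups carry the 5XFAD transgenes, which drive human proteins with familial Alzheimer's disease mutations in neurons, and the controls were littermates without neuronal deletion. In 5XFAD;Neu cKO mice a Camk2a-Cre transgene recombines floxed Idol after birth, and the line is known to act mainly in excitatory forebrain neurons.

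GABA is the main inhibitory transmitter of the cortex. It is made from glutamate in interneurons, loaded into vesicles, released onto chloride channels (GABA-A receptors) and G protein-coupled receptors (GABA-B receptors), and cleared by transporters on neurons and astrocytes. Whether an open GABA-A channel inhibits depends on the chloride gradient that cation-chloride cotransporters set. Interneurons fall into classes by developmental origin, and a few transcription factors and peptides mark them.

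QuantSeq libraries are primed at the poly(A) tail and read transcripts from their 3′ ends. Counts scaled by library size to CPM, the unit used below, therefore depend little on transcript length. They follow transcript number only where the 3′ end in use lies in the annotated gene. Of the reads, 31.3% to 39.9% lay on no gene. Levels and shares compared between genes below are thus those of counted reads, and a gene with a missed 3′ end would read too low. The depth was 4320504 to 7466192 reads on genes in 5XFAD and 5148499 to 7246659 in 5XFAD;Neu cKO. In replicate order, mitochondrial genes took 23.48%, 24.68%, 23.3%, 25.15% and 20.88% of these reads in 5XFAD. In 5XFAD;Neu cKO they took 24.65%, 20.18%, 20.48%, 21.05% and 20.52%. Thus 5XFAD replicate 5 and 5XFAD;Neu cKO replicate 1 each lay among the values of the other group. The relation of this share to the members' values was not tested. The targeted gene, Mylip, which encodes IDOL, had 45 to 108 reads in 5XFAD and 50 to 148 in 5XFAD;Neu cKO (log2 fold change 0.39, SE 0.25, edgeR adjusted p = 0.777), so its counts were not lower in the libraries that carry the deletion label. Reads from the 3′ end need not cover the floxed part of the gene. Bulk cortex also holds cells in which Camk2a-Cre does not act. These counts therefore cannot show whether Idol was deleted. A group name below means the libraries with that label. Markers of excitatory neurons summed to 4659 to 5651 CPM over the 10 libraries, and none of the 14 measured was at 0 in any library. Camk2a and Nrgn, with means of 1823 and 2086 CPM, carried much of this sum. Striatal markers were also present in every library, with sums of 836 to 1258 CPM in 5XFAD;Neu cKO and 905 to 1170 in 5XFAD, and none of the 8 passed the test. Hcrt, a peptide of hypothalamic neurons, reached 23.5 CPM in 5XFAD replicate 2 and at most 1.71 in the others. For several members the value without that library is therefore also given. Leaving it out does not remove all such RNA. Oxt, another hypothalamic peptide, had 13.95, 34.3, 26.5, 2.98 and 30.1 CPM in 5XFAD and 12.3, 0, 4.07, 2.86 and 1.29 in 5XFAD;Neu cKO. The part of such RNA in the members' values was not tested.

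No member passed the threshold in the comparison of 5XFAD;Neu cKO with 5XFAD. The adjusted p of the 32 members ran from 0.267 to 0.998 (edgeR quasi-likelihood test, Benjamini-Hochberg over all genes, threshold 0.05), in a comparison that called 0.218% of genes (0.0571% higher, 0.161% lower). DESeq2 called 0 of the 25 members to which it gave an adjusted p, the lowest being 0.119. It gave none to Gabrb2, Lhx6, Dlx1, Dlx6, Adarb2, Prox1 and Npas1, whose counts are low. At an unadjusted p under 0.05 there were 7 members (21.9%) by edgeR, beside 7.95% of all genes in the same fit. DESeq2 gave 7 members. The edgeR count was 3 without 5XFAD replicate 3, 3 without 5XFAD;Neu cKO replicate 5 and 4 without 5XFAD replicate 5. The share of all genes by DESeq2 or without a library is not given here. Of the 7 by edgeR with all libraries, Lhx6 and Gad1 were the 2 on the higher side, where the background was 3.94%. The 5 on the lower side, where it was 4.01%, were Slc6a11, Gabrb2, Nxph1, Slc12a2 and Gabbr1. The background share rises with level. It was 8.82% over genes at or above 2.66 CPM, the mean of the lowest member, and 14.9% over genes at or above 59.2 CPM, the median of the members. Of the 16 members at or above that median, 3 had an unadjusted p under 0.05. None of the 32 had groups that did not overlap in CPM, a pattern found in 1.3% of all genes. In bulk tissue, fewer cells of a type and less RNA per cell cannot be told apart, and this holds for every difference below.

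The members were centred close to no change. Their median log2 fold change was −0.041, beside −0.00056 over all genes tested, with 19 on the lower side and 13 on the higher. The 95% interval lay within ±0.5 on the log2 scale (1.41-fold) for 21 members and reached beyond it for 11. For 3 members, Gabrb2, Lhx6 and Npas1, it reached beyond 1. The standard errors ran from 0.075 for Gabbr1 to 0.52 for Npas1.

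**Figure D1:**
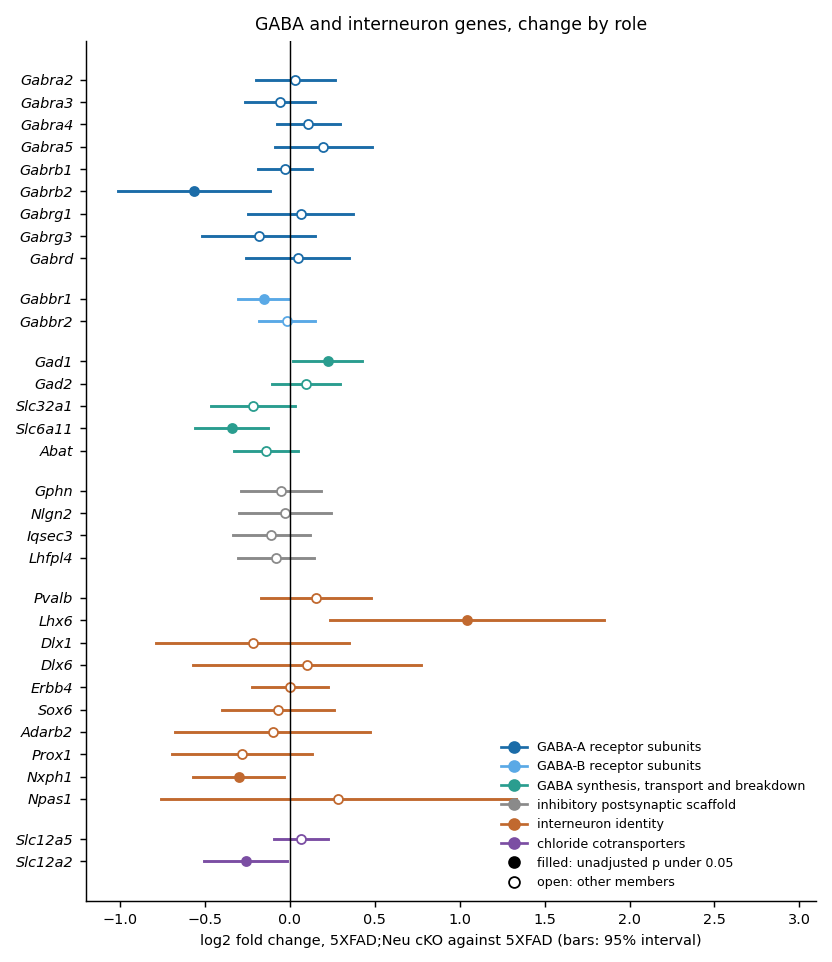
Log2 fold change of each of the 32 members (horizontal axis, 5XFAD;Neu cKO against 5XFAD) with its 95% interval from the edgeR fit, grouped by role. The 7 filled points had an unadjusted p under 0.05, none passed after adjustment, and the widest intervals belong to Lhx6 and Npas1, the members with the fewest reads.

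The 9 GABA-A receptor subunits, which form the ligand-gated chloride channels, had a median log2 fold change of 0.032, with 5 on the higher side and 4 on the lower. Gabrb1, a beta subunit, took 38.9% ± 1.17 of the reads of these 9 genes in 5XFAD;Neu cKO and 39.5% ± 0.820 in 5XFAD (SD, n = 5 per group). Next came the alpha subunit Gabra4 with 16.4% ± 1.35 and 15.1% ± 0.768. Gabrb2, another beta subunit, had the lowest share, 1.62% ± 0.378 and 2.35% ± 0.611.

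Gabrb2 (ENSMUSG00000007653) was the subunit with the largest difference. Its level was 23.8, 18.3, 24.3, 17.3 and 11.0 CPM in the 5 5XFAD libraries and 11.96, 16.9, 9.98, 11.8 and 13.9 CPM in the 5 5XFAD;Neu cKO libraries. 4 of the 5XFAD libraries lay above all of the others, and 5XFAD replicate 5 lay among the lowest, so the groups overlapped. The log2 fold change was −0.56 (SE 0.22, edgeR unadjusted p = 0.0139, adjusted p = 0.451). The exact two-sided permutation test of its log2 CPM gave p = 0.0794, with n = 5 per group.

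Gabrd encodes the delta subunit of extrasynaptic receptors that carry tonic inhibition. Its level was 39.9, 36.8, 29.6, 32.6 and 29.6 CPM in 5XFAD and 40.0, 28.0, 35.2, 31.6 and 38.9 CPM in 5XFAD;Neu cKO. The groups covered nearly the same range, and the 95% interval of the log2 fold change was −0.26 to 0.35 (edgeR adjusted p = 0.984). Gabra5, the alpha subunit of extrasynaptic receptors in hippocampus and deep cortex, had 37.0 ± 5.96 CPM in 5XFAD and 42.5 ± 4.54 in 5XFAD;Neu cKO (log2 fold change 0.20, SE 0.14).

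The genes Gabrg1, Gabra2, Gabra4 and Gabrb1 lie side by side on chromosome 5 of GRCm39, from the start of Gabrg1 at 70906506 to the end of Gabrb1 at 72319431. Their log2 fold changes were 0.063 for Gabrg1, 0.032 for Gabra2, 0.11 for Gabra4 and −0.027 for Gabrb1, and each 95% interval held 0. Without 5XFAD replicate 2 that of Gabra2 was −0.040. Gabra4 and Gabrb1 lie on opposite strands and overlap at their starts by annotation. Gabrg3 and Gabra5 are neighbours on chromosome 7, with −0.18 (−0.051 without 5XFAD replicate 2) and 0.20. Gabra3, on the X chromosome, had −0.059. Gabrg3 had the widest spread of the 9, with a within-group coefficient of variation of 26.0%, and Gabra4 the narrowest of all 32 members, with 6.23%.

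The GABA-B receptor is an obligate pair of the proteins of Gabbr1, which binds GABA, and Gabbr2, which couples to the G protein. These were the members with the highest levels, 485 CPM for Gabbr1 and 405 for Gabbr2 over the 10 libraries. Gabbr1 (ENSMUSG00000024462) had 511, 552, 502, 478 and 509.9 CPM in 5XFAD and 508, 409.8, 456, 457 and 464 CPM in 5XFAD;Neu cKO. All 5XFAD libraries lay above 4 of the 5XFAD;Neu cKO libraries, and 5XFAD;Neu cKO replicate 1 lay among the 5XFAD values. The log2 fold change was −0.15 (SE 0.075, edgeR unadjusted p = 0.0464, adjusted p = 0.617, exact permutation p = 0.0238). Without 5XFAD replicate 2 it was −0.13 and the unadjusted edgeR p was 0.101. The partner subunit Gabbr2 had 408 ± 33.7 CPM in 5XFAD and 403 ± 51.4 in 5XFAD;Neu cKO, with an interval of −0.18 to 0.15.

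Gad1 and Gad2 encode the glutamate decarboxylases GAD67 and GAD65, which make GABA. Gad1 (ENSMUSG00000070880) had 150.0, 118, 199.7, 178 and 156 CPM in 5XFAD and 191, 156, 213, 181 and 194 CPM in 5XFAD;Neu cKO. 5XFAD replicate 2 was the lowest library and 5XFAD replicate 3 was the second highest, so the 5XFAD values enclosed most of the others. The log2 fold change was 0.22 (SE 0.10, edgeR unadjusted p = 0.0320, adjusted p = 0.553, exact permutation p = 0.151), and without 5XFAD replicate 2 it was 0.13 with an unadjusted edgeR p of 0.178.

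Gad2 had 122, 101, 156.5, 161 and 138 CPM in 5XFAD and 141, 135, 161, 143 and 146 CPM in 5XFAD;Neu cKO. 5XFAD replicate 2 was again the lowest, and the 5XFAD range enclosed 4 of the 5 5XFAD;Neu cKO values (log2 fold change 0.095, SE 0.10, edgeR adjusted p = 0.909). Without that library the Gad2 log2 fold change was 0.0059. The ratio of Gad1 to Gad2 reads within a library needs no scaling. It was 1.23, 1.17, 1.28, 1.10 and 1.13 in 5XFAD and 1.35, 1.16, 1.32, 1.27 and 1.33 in 5XFAD;Neu cKO. Its geometric mean was 1.18 and 1.28, a difference of 0.13 on the log2 scale that stayed within what the relabelling of libraries gives (exact two-sided permutation p = 0.0714, the same after adjustment over the 2 ratios computed).

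Slc6a11, the GABA transporter GAT-3 known from astrocytes, had the smallest p of the 32 members. Its level was 108, 131, 104, 102 and 107 CPM in 5XFAD and 108, 81.5, 92.9, 75.7 and 76.7 CPM in 5XFAD;Neu cKO. 4 of the 5XFAD;Neu cKO libraries lay below all 5XFAD libraries, and replicate 1 lay among them. The log2 fold change of Slc6a11 (ENSMUSG00000030307) was −0.34 (SE 0.11, edgeR unadjusted p = 0.00244, adjusted p = 0.267, exact permutation p = 0.0397). Without 5XFAD replicate 2, its highest library, it was −0.27, with an unadjusted p of 0.0148 from edgeR. Without 5XFAD;Neu cKO replicate 1 it was −0.43 and the adjusted p was 0.0666.

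Of the 12 astrocyte markers, 11 had a negative log2 fold change, the median was −0.16, and Gfap, the filament protein of reactive astrocytes, fell (−0.88, edgeR adjusted p = 0.00202). Their summed level was 4751 to 5593 CPM in 5XFAD and 4607 to 5311 in 5XFAD;Neu cKO, with no marker at 0 in any library. S100b had the next smallest p among them, with −0.23 (edgeR adjusted p = 0.488). Their part in the Slc6a11 difference was not tested.

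The other genes of this group were the vesicular GABA transporter Slc32a1 and GABA transaminase Abat, which breaks GABA down. Slc32a1 had 68.2 ± 6.76 CPM in 5XFAD and 58.6 ± 10.7 in 5XFAD;Neu cKO (log2 fold change −0.22, edgeR unadjusted p = 0.0830). Abat had 125 ± 11.4 and 113 ± 5.35 CPM (−0.14, exact permutation p = 0.0635). Neither passed the adjusted threshold, and the groups overlapped for each gene. With 1 library left out, Slc32a1 had an unadjusted p under 0.05 in 3 of 10 edgeR fits and Abat in 0. Without 5XFAD replicate 2 the Abat log2 fold change was −0.094.

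**Figure D2:**
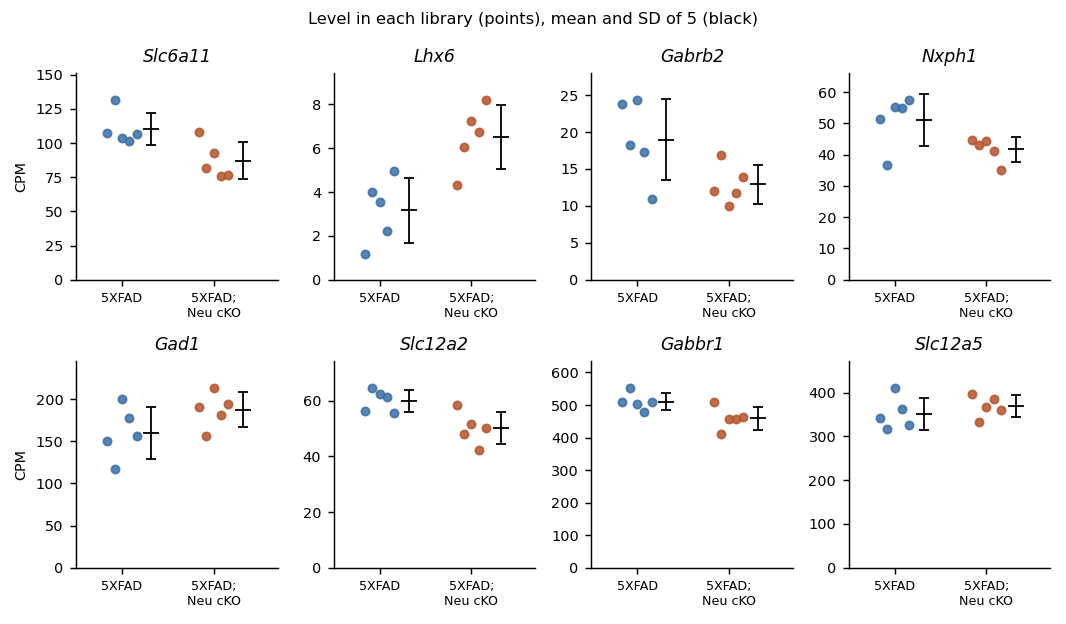
CPM of 8 members in each library (points, 5 per group) with the group mean and SD in black; every vertical axis starts at 0. The groups overlap in all 8 panels, and for Lhx6 the lowest 5XFAD;Neu cKO library (4.30) lies below only the highest 5XFAD library (4.94).

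The 4 genes of the inhibitory postsynaptic scaffold all had small negative values. Gephyrin (Gphn), which anchors GABA-A receptors, had a log2 fold change of −0.054. Neuroligin 2 (Nlgn2), the adhesion protein of inhibitory synapses, had −0.027. Iqsec3, an exchange factor that binds gephyrin, had −0.11. Lhfpl4, which links receptors to neuroligin 2, had −0.081 (0.0092 without 5XFAD replicate 2). Their edgeR adjusted p ran from 0.905 to 0.990, and their levels were between 42.6 CPM for Nlgn2 and 88.5 for Lhfpl4.

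The 10 interneuron identity genes were split evenly, 5 on each side, with a median log2 fold change of −0.033. They also held the lowest levels, from 2.66 CPM for Npas1 to 114 for Erbb4, the neuregulin receptor of interneurons, whose log2 fold change was 0.0032. Pvalb, the calcium-binding protein of fast-spiking basket and chandelier cells, had 30.0, 51.6, 28.5, 33.4 and 23.8 CPM in 5XFAD and 36.1, 29.4, 46.2, 36.0 and 37.4 CPM in 5XFAD;Neu cKO. The highest and the lowest library were both 5XFAD, and the interval of the log2 fold change was −0.17 to 0.48 (log2 fold change 0.15, edgeR adjusted p = 0.909). The highest was 5XFAD replicate 2, and without it the log2 fold change of Pvalb was 0.36 (edgeR unadjusted p = 0.0298, adjusted p = 0.684), the 1 of 10 fits without a library in which its unadjusted p was under 0.05.

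Lhx6, the transcription factor that maintains the parvalbumin and somatostatin lineages, had the largest fold change of the 32. It was counted 6, 17, 26, 12 and 22 times in 5XFAD and 23, 33, 55, 40 and 57 times in 5XFAD;Neu cKO, or 3.17 ± 1.49 and 6.502 ± 1.45 CPM. 4 of the 5XFAD;Neu cKO libraries lay above every 5XFAD library in CPM. The log2 fold change of Lhx6 (ENSMUSG00000026890) was 1.04 with an interval of 0.24 to 1.85 (SE 0.40, edgeR unadjusted p = 0.0122, adjusted p = 0.445, exact permutation p = 0.0159). With a mean of 29.1 reads, counting error alone gives a coefficient of variation of 18.5%, beside the 34.6% measured within groups.

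Other genes of the lineage are set beside Lhx6, with no test of a difference from it. Pvalb, above, had 0.15 with an interval that overlaps that of Lhx6. Sox6, a factor downstream of it, had 31.8 ± 5.18 CPM in 5XFAD and 30.2 ± 6.58 in 5XFAD;Neu cKO (log2 fold change −0.068, and 0.011 without 5XFAD replicate 2). Sst, the peptide of the other main class of that lineage and no member, had 102.9 ± 11.6 and 97.3 ± 16.8 CPM (−0.080), and was named after its values were seen. Nxph1 (ENSMUSG00000046178), a neurexin ligand made by interneurons, had 51.6, 36.8, 55.4, 55.0 and 57.5 CPM in 5XFAD and 44.7, 43.2, 44.2, 41.2 and 35.0 CPM in 5XFAD;Neu cKO. 4 of its 5XFAD libraries lay above all 5XFAD;Neu cKO libraries and 5XFAD replicate 2 lay below 4 of them. The Nxph1 log2 fold change was −0.30 (SE 0.13, edgeR unadjusted p = 0.0292, adjusted p = 0.544, exact permutation p = 0.0635). Without 5XFAD replicate 2 it was −0.40 with an unadjusted edgeR p of 0.00383.

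Dlx1 and Dlx6 are homeobox genes that specify GABAergic neurons. Dlx1 had 14.2, 9.15, 10.2, 7.46 and 13.2 CPM in 5XFAD and 5.98, 8.64, 13.7, 5.38 and 12.5 CPM in 5XFAD;Neu cKO. Both groups spanned largely the same range, and the 95% interval was −0.78 to 0.35 (edgeR adjusted p = 0.941). Dlx6 had the widest spread of all 32 members, with a within-group coefficient of variation of 45.5% where counting error alone gives 14.3%. Adarb2 (−0.10), Prox1 (−0.28) and Npas1 (0.29), which mark interneurons of caudal ganglionic eminence origin, had standard errors of 0.29, 0.21 and 0.52. Without 5XFAD replicate 2 they were at −0.26, −0.13 and 0.21.

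**Figure D3:**
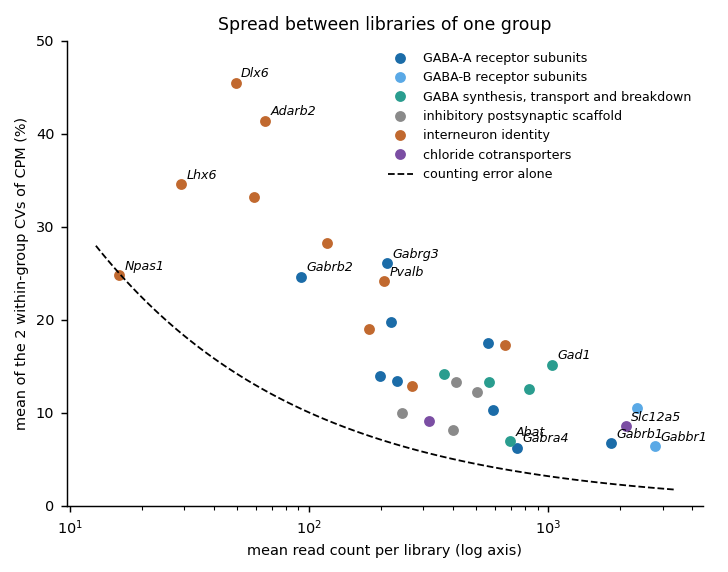
Spread of each member between libraries of one group (vertical axis, mean of the 2 within-group coefficients of variation of CPM) against its mean read count per library (horizontal log axis), with counting error alone as a dashed line. Interneuron identity genes such as Dlx6 (45.5%) and Adarb2 (41.4%) lie at the top left, and Gabra4 (6.23%) and Gabbr1 (6.39%) at the bottom right.

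The chloride cotransporters KCC2 (Slc12a5), which exports chloride from mature neurons, and NKCC1 (Slc12a2), which imports it, had log2 fold changes of opposite sign. Slc12a5 had 343, 318, 410.5, 363 and 327 CPM in 5XFAD and 396.5, 333, 368, 387 and 361 CPM in 5XFAD;Neu cKO. The groups overlapped broadly (log2 fold change 0.066, SE 0.081, edgeR adjusted p = 0.933). Slc12a2 (ENSMUSG00000024597) had 56.2, 64.5, 62.4, 61.3 and 55.4 CPM in 5XFAD and 58.3, 48.2, 51.7, 42.4 and 50.1 CPM in 5XFAD;Neu cKO.

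In Slc12a2, 4 of the 5XFAD;Neu cKO libraries lay below every 5XFAD library, and replicate 1 lay among them. The log2 fold change was −0.26 (SE 0.12, edgeR unadjusted p = 0.0383, adjusted p = 0.587, exact permutation p = 0.0238), and without 5XFAD replicate 2 it was −0.23 with an unadjusted edgeR p of 0.0710.

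The ratio of Slc12a5 to Slc12a2 reads within a library was 6.11, 4.92, 6.58, 5.91 and 5.90 in 5XFAD and 6.80, 6.91, 7.12, 9.12 and 7.21 in 5XFAD;Neu cKO. Every 5XFAD;Neu cKO library had a higher ratio than every 5XFAD library. The geometric mean was 7.39 against 5.86, a difference of 0.33 on the log2 scale (exact two-sided permutation p = 0.00794, the smallest that relabelling 5 against 5 libraries can give, and 0.0159 after adjustment over the 2 ratios). Without 5XFAD replicate 2, its lowest library, the difference was 0.27 (exact permutation p = 0.00794). Both genes were chosen with earlier results of these libraries known, which the adjustment over the 2 ratios does not cover. How many other pairs of genes separate the groups in this way was not tested.

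NKCC1 RNA is also made by glia and choroid plexus. The 11 oligodendrocyte markers all had negative log2 fold changes (median −0.28), and Mal, a myelin proteolipid, passed the test (−0.48, edgeR adjusted p = 0.0427). Mobp came next with −0.43 (adjusted p = 0.0662). Their sum was 2141 to 3128 CPM in 5XFAD and 1892 to 2965 in 5XFAD;Neu cKO, with none at 0 in any library. In replicate order the sums were 2904, 3128, 2727, 2767 and 2141 CPM in 5XFAD and 2965, 2192, 2477, 1914 and 1892 CPM in 5XFAD;Neu cKO. Ttr, a choroid plexus marker named after its values were seen, had 23.5 to 66.4 CPM in 5XFAD and 10.1 to 132.9 in 5XFAD;Neu cKO. Its lowest library was 5XFAD;Neu cKO replicate 4 and its highest was 5XFAD;Neu cKO replicate 5. The part of oligodendrocytes and of choroid plexus in the ratio was not tested.

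**Figure D4:**
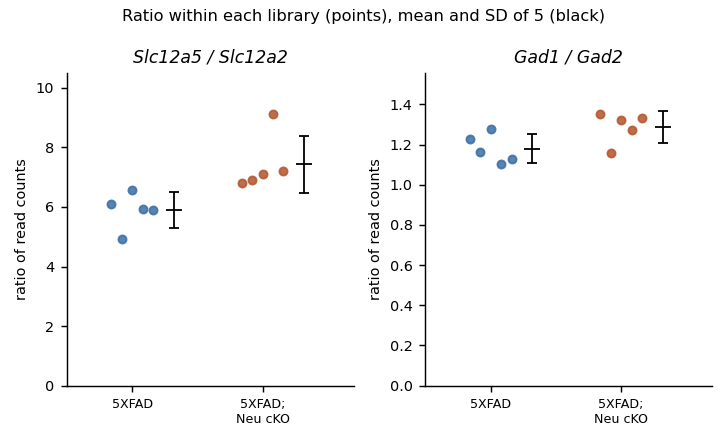
Ratio of read counts of Slc12a5 to Slc12a2 (left) and of Gad1 to Gad2 (right) in each library (points, 5 per group), with mean and SD in black and axes from 0. The left ratio spans 4.92 to 6.58 in 5XFAD and 6.80 to 9.12 in 5XFAD;Neu cKO without overlap, and the right ratio overlaps (1.10 to 1.28 and 1.16 to 1.35).

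Further genes of the pathway and of interneurons were listed from general knowledge, with earlier results of these data known. Of 26 other GABA pathway genes, 0 passed the edgeR threshold and 0 had an unadjusted p under 0.05 in that fit, where DESeq2 gave 0 (of 18 with an adjusted p) and 1. Of them, 15 were on the higher side and 11 on the lower, with a median of 0.044. The smallest p belonged to Wnk1, a kinase upstream of the cotransporters (−0.17, edgeR adjusted p = 0.666).

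Of 28 other interneuron genes, 0 passed the edgeR threshold and 4 had an unadjusted p under 0.05, where DESeq2 gave 0 (of 18 with an adjusted p) and 3, with 9 on the higher side, 19 on the lower and a median of −0.040. Tac1, the tachykinin precursor, had 110.5 ± 16.3 CPM in 5XFAD and 91.0 ± 9.80 in 5XFAD;Neu cKO (−0.28, edgeR adjusted p = 0.445). Cntnap4, a neurexin-family protein of interneuron terminals, had 24.6 ± 5.01 and 17.6 ± 3.70 CPM (−0.48, adjusted p = 0.465). The other two were Vip, the peptide of disinhibitory interneurons, with −0.42, and Meis2 with 0.21, both named after their values were seen. Sp8 was at 0 in at least 1 library.

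Markers of other cell types are given for the tissue as a whole. Of the 12 microglia markers 7 fell, namely Ctss, C1qb, Tyrobp, Csf1r, C1qc, Cx3cr1 and Laptm5, with the smallest adjusted p for Ctss (−0.91, edgeR adjusted p = 5.24e-07) and C1qb (−1.21, 0.000407), and DESeq2 called 6 of the 9 to which it gave an adjusted p. Their sum was 497 to 726 CPM in 5XFAD and 339 to 431 in 5XFAD;Neu cKO. None of the 14 excitatory neuron markers passed in edgeR, nor any of the 12 with an adjusted p in DESeq2, and 2 had an unadjusted p under 0.05 in each, namely Neurod2 (0.32, edgeR adjusted p = 0.274) and Slc17a6 (−0.39, 0.369). None of the 8 oligodendrocyte precursor markers passed in edgeR, nor any of the 3 with an adjusted p in DESeq2, and 1 had an unadjusted p under 0.05 by each (Tnr −0.20, then Matn4 −0.23). None of the 7 endothelial markers (Itm2a −0.18, Slco1a4 −0.13) and 8 striatal markers (Pde10a 0.19, Ppp1r1b 0.12) passed in edgeR, nor any of the 5 and 6 with an adjusted p in DESeq2, and none had an unadjusted p under 0.05 by either tool. Among 11 thalamic, choroid plexus and hypothalamic markers Oxt fell (−2.40, edgeR adjusted p = 0.000932), followed by Avp (−1.41, 0.0700), in edgeR, while DESeq2 gave an adjusted p to 1 of the 11, not to Oxt, and called 0. The Oxt groups overlapped, with 2.98 CPM in 5XFAD replicate 4 and 12.3 in 5XFAD;Neu cKO replicate 1. The sum of the list was 73.6 to 177 CPM in 5XFAD and 61.6 to 180 in 5XFAD;Neu cKO. The part of any of these cell types in the members' values was not tested.

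**Figure D5:**
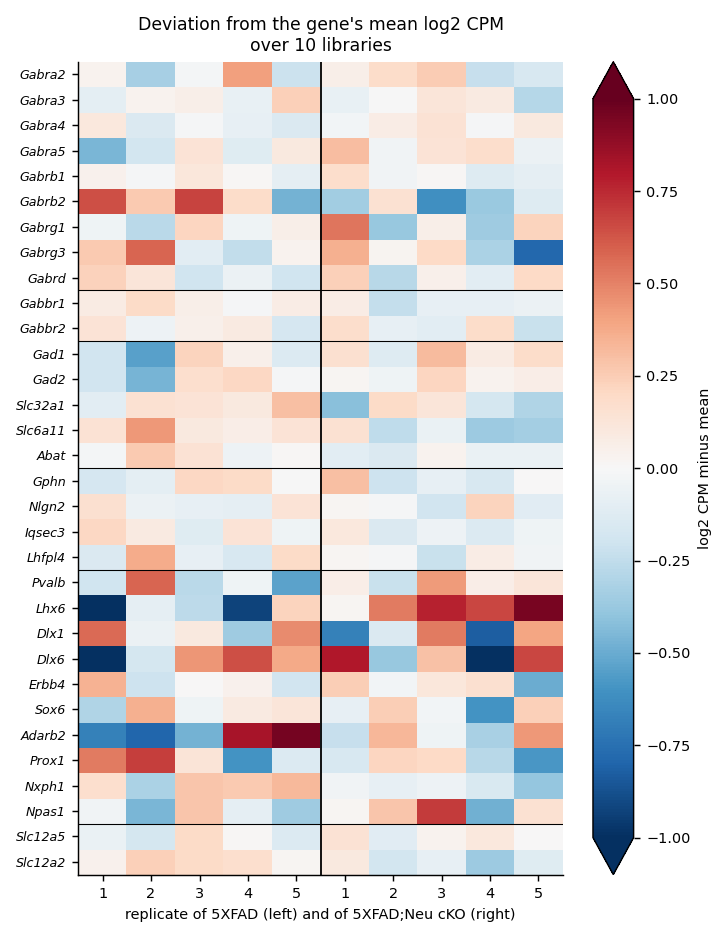
Deviation of log2 CPM from the gene's mean over the 10 libraries for each of the 32 members (rows, grouped by role) in each library (columns); colours saturate at ±1. 5XFAD replicate 2 is blue for Gad1 and Gad2 (118 and 101 CPM) and red for Slc6a11 and Pvalb (131 and 51.6 CPM), and Lhx6 is red in 4 of the 5XFAD;Neu cKO libraries.

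Promoters are shown for the member with the smallest p on each side, because these are the sequences from which their transcription starts by annotation. Of the 32 members, 28 had a window from 250 bases before to 50 bases after the start in RefSeq on GRCm38.p6, an older build than that of the counts, and Gabrd, Abat, Dlx6 and Slc12a2 had none. Capitals mark the GC box GGGCGG on either strand, the site of Sp-family factors. Slc6a11 (chr6:114130991-114131290, plus strand) holds 4 and Lhx6 (chr2:36105359-36105658, minus strand, the first of its 3 windows) holds 1:
Slc6a11: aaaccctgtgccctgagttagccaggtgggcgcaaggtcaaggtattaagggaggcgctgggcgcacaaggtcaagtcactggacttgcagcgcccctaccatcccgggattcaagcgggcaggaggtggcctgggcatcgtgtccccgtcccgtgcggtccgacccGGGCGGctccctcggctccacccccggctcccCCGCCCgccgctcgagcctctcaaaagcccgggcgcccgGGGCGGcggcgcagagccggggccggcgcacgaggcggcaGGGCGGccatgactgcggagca
Lhx6: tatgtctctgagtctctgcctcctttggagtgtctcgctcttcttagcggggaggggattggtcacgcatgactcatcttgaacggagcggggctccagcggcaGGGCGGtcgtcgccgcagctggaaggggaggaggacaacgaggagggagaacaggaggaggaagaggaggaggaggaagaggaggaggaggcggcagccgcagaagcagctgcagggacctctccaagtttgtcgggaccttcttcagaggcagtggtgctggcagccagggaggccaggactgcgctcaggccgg
The median GC content of the members' windows was 63.5%, beside 52.7% over all genes with a window. GGGCGG on either strand was found in 19 of 28 members and in 35.9% of 27025 genes. The homeodomain core TAATTA was found in 2 members, Adarb2 and Gabrg1, and in 5.31% of genes, and the cyclic AMP response element TGACGTCA in 0 members and 1.88% of genes. These matches are descriptions of letters in the windows, and no readout here measures binding.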

How the data were processed

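RNA of 10 cortices was analysed, 5 per group. The authors trimmed the reads, aligned them with STAR (2.7.3a in the submitters' processing notes) to GRCm39 with Ensembl annotation, and deposited HTSeq read counts per gene and library without normalization. The notes name HTSeq 0.9.1, and the strand setting of the counting is not given in the sources used here. The 12 members with an opposite-strand gene over 10 counts are therefore uncertain. They are Gabra4, Gabra5, Gabrb1, Gabrg3, Slc32a1, Gphn, Dlx1, Dlx6, Sox6, Prox1, Npas1 and Slc12a5. For Slc12a5, the first gene of the cotransporter ratio, the opposite gene Ncoa5 had 951 counts in total beside 21100. Reads on no gene (31.3% to 39.9%) were left out. Names came from GENCODE of the same build, a later release.

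From the deposited counts, genes with a total over 10 entered edgeR 4.0.16 under R 4.3.3 (TMM, quasi-likelihood test, Benjamini-Hochberg over 19268 genes, threshold 0.05), with condition as the only term. The common biological coefficient of variation was 0.281. CPM per library and a two-sided exact permutation test of mean log2 CPM (prior count 2, every relabelling of 5 against 5) were computed beside it, and the steps were tested on simulated data. The labels give separate samples but no animal numbers, so p-values measure the spread between these libraries. DESeq2 1.42.0 and other alternatives are in the closing section. The members and lists were chosen with earlier results of these data known. All members were named, in full those with an unadjusted p under 0.05 and Gad1, Gad2, Pvalb, Slc12a5, Slc12a2, Gabrd, Lhx6 and Dlx1, and of each other list the genes past the threshold and the 2 with the smallest p. Of the other GABA-A receptor subunits, only Gabre and Gabrq were looked at, within the 26 other GABA pathway genes. One gene that this rule covers is not reported here.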

Additional observations from a re-analysis of the deposited data

Results flagged for a closer look

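In groups of 5 libraries, 2 of 64 (32 members in both groups) held a library far from the other 4 by Dixon's 95% criterion, where chance gives about 1 in 20. Both are 5XFAD replicate 2. The Slc6a11 level was 131 CPM there and 102 to 108 CPM in the other 5XFAD libraries. The Nxph1 level was 36.8 CPM there and 51.6 to 57.5 CPM in the others. The same library held 23.5 CPM of Hcrt, and the part of this in either value was not tested.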

How the results depend on the processing

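No member passed the threshold under any of the 17 alternatives (DESeq2, DESeq2's size factors in edgeR, filterByExpr, no filter, a robust fit, no mitochondrial genes, a replicate block, and each library left out), though DESeq2 gave no adjusted p to 7 members with low counts. The number of members with an unadjusted p under 0.05 was 7 and lay between 3 and 6 with 1 library left out, being 3 without 5XFAD replicate 3, 3 without 5XFAD;Neu cKO replicate 5, and 4 without 5XFAD replicate 5. It was 6 or 7 in the alternatives with all 10 libraries. The share of all genes in each alternative is not given here. With 1 library left out, Slc6a11 and Lhx6 kept an unadjusted p under 0.05 in 10 of 10 fits, Gabrb2 in 8, Nxph1 in 6, Gad1 and Slc12a2 in 4 and Gabbr1 in 2. Of the others, Slc32a1 did so in 3 and Pvalb and Prox1 in 1 each.

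The sign of the log2 fold change held in all 17 alternatives for 20 members, and reversed for 12 when 1 library was left out, with ranges of −0.040 to 0.16 (Gabra2), −0.099 to 0.0016 (Gabra3), −0.076 to 0.0015 (Gabrb1), −0.080 to 0.15 (Gabrg1), −0.0081 to 0.11 (Gabrd), −0.068 to 0.034 (Gabbr2), −0.091 to 0.016 (Nlgn2), −0.13 to 0.0092 (Lhfpl4), −0.14 to 0.29 (Dlx6), −0.059 to 0.11 (Erbb4), −0.15 to 0.046 (Sox6) and −0.26 to 0.18 (Adarb2). The median of the members ran from −0.081 to −0.020, that of GABA-A subunits from −0.047 to 0.078 and that of interneuron identity genes from −0.12 to 0.069. The cause of these reversals was not tested, and all lay near 0 relative to their errors.

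The Slc12a5 to Slc12a2 difference ran from 0.26 to 0.38 without 1 library and stayed at an exact permutation p of 0.0159 or less. The groups do not overlap with all libraries, so leaving 1 out had to keep p near the smallest possible. The p also does not cover the choice of both genes with earlier results known. The Gad1 to Gad2 difference ran from 0.10 to 0.16 and passed an unadjusted 0.05 without 5XFAD replicate 3 (0.15, exact permutation p = 0.0397) and without 5XFAD;Neu cKO replicate 2 (0.16, 0.0238).

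Same-numbered libraries did not deviate together (r from −0.035 to 0.0074 over the 5 pairs). This gave no sign of pairing by number, though a pairing without a shared deviation would not show. With the replicate block, 0 members passed, 7 had an unadjusted p under 0.05, and the median was −0.029. The block turned the sign of Erbb4 (−0.00058) and Adarb2 (0.030). Low counts limit Npas1 (8 to 32 reads) and Lhx6 (6 to 57).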
